A study of Mus musculus with 6 samples.

Results

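The multidrug efflux transporters described here are 8 mouse genes, Abcb1a, Abcb1b, Abcc1, Abcc2, Abcc3, Abcc4, Abcc5 and Abcg2, of 38924 genes in the count table. They were chosen by name as the drug pumps of the ATP-binding cassette (ABC) family, with earlier results of the same samples known, among them a large difference in Abcb1b. Their values and calls in the comparison below are therefore a description and carry no p-value. Of the 8 genes, 6 passed the filter on low counts, and Abcb1a and Abcc2 did not.

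RNA was sequenced from mouse epidermal cells purified as positive for CD49f, the integrin alpha 6 chain on the surface of basal keratinocytes. The 3 K14-Cre+ libraries came from Rnaseh2b flox/flox cells that also carried a Cre recombinase under the keratin 14 promoter, which is active in basal keratinocytes. The 3 K14-Cre- libraries came from cells with the same flox/flox alleles and no Cre. Replicate numbers used here follow the order of the samples in each group and pair no libraries between groups. Rnaseh2b encodes a subunit of RNase H2, which removes ribonucleotides from DNA. A group with K14-Cre and unfloxed alleles was not among the samples, so the presence of Cre and the loss of Rnaseh2b cannot be told apart. The labels give neither age nor sex, and they do not say whether each library is a different animal. Errors and p-values therefore cover the variation among these libraries alone, which may be technical.

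ABC transporters use the energy of ATP to move molecules across membranes. The drug pumps among them sit mostly in the plasma membrane and export toxins, drugs and the cell's own lipids, nucleotides and conjugated waste. Abcb1a and Abcb1b are neighbouring copies that together do in the mouse the work of human ABCB1, P-glycoprotein, which expels hydrophobic drugs. The Abcc genes encode multidrug resistance-associated proteins, which export organic anions, many of them joined to glutathione or glucuronic acid. Abcg2 encodes the breast cancer resistance protein, which works as a dimer, exports urate, porphyrins and drugs, and is known for expelling a dye from stem-like cells.

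The genomic context of Abcb1b is shown first because this gene had the largest difference among the pumps. Abcb1b lies at chr5:8798147-8866314 on the plus strand of mm10, with 28 counted exon blocks. Over 3.29% of its exon length Gm5106 lies on the opposite strand, with a mean of 1.7 counts. Abcb1a lies before it on the same strand at chr5:8660077-8748575, with a gap of 49.6 kb between them. The RefSeq promoter window of Abcb1b, which runs from 250 bases before to 50 bases after the start site, is chr5:8797897-8798196 on the plus strand of GRCm38.p6. It is printed 5′ to 3′ with capitals on letter matches to the p53 consensus decamer and to CCAAT or its reverse complement ATTGG.
Abcb1b promoter: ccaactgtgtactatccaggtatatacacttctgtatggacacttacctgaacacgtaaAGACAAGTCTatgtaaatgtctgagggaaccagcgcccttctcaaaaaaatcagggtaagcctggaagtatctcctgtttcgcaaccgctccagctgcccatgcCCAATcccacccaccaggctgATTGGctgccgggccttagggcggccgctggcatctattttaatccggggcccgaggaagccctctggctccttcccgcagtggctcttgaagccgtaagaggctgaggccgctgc

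The p53 decamer, of which a full site holds a pair, was searched because the rat promoter of this gene is known to bind p53, and CCAAT because the human ABCB1 promoter is known to use such a box. Abcb1b held 1 such decamer, at chr5:8797956-8797965 and starting at position -191 from the start site. The decamer was present in 8.4% of 32851 RefSeq windows of the same length. CCAAT on either strand occurred at 2 places in the Abcb1b window and in 37.4% of all windows. GCGTG, the core of the site bound by the aryl hydrocarbon receptor, was in 32.4% of windows but not in that of Abcb1b. The same held for TGACNNNGC, the core bound by NRF2, which was in 12.4% of windows. All motifs were searched on both strands, and no match of one overlapped another in the Abcb1b window. A match of letters is a description and shows neither binding nor its absence.

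RefSeq windows were found for 6 of the 8 genes. The p53 decamer was also present in the window of Abcc2, a gene with 1 read in the whole data set, and in none of the windows of Abcb1a, Abcc4, Abcc5 or Abcg2. The RefSeq start site of Abcb1a lies 93.0 kb before the first exon block counted for that gene, so its window is not the promoter of the counted transcript start.

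The nearness in sequence of Abcb1a and Abcb1b bears on how their reads were assigned. Their coding sequences in the GENCODE transcripts of GRCm38 were identical at 88.0% of 3822 aligned bases, and the longest run without a difference was 338 bases. Of the 50-base windows of the Abcb1b transcript, 18.04% also occurred in that of Abcb1a. For 75-base windows the share was 12.36%. The 60-base stretch that differs most, with 25 differences in capitals, begins at coding base 1913 of Abcb1a and 1922 of Abcb1b and shows the kind of sequence by which the copies can be told apart.
Abcb1a coding stretch: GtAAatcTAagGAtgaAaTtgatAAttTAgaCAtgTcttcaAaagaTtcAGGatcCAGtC
Abcb1b coding stretch: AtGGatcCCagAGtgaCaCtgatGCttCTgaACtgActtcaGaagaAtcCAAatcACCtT

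Library totals ran from 22948779 to 31718094 counts. Rnaseh2b had 172, 90 and 69 counts in K14-Cre+ libraries, against 543, 504 and 570 in K14-Cre- libraries (log2 fold change -2.34, SE 0.17, adjusted p = 0.0102 by edgeR), as the labels imply. The labels do not say which exons are floxed, and the counts cover the whole gene. The 6 basal keratinocyte markers, among them Krt5, Krt14 and Itga6, were all present, with a summed level of 15300 to 16900 CPM (counts scaled to library size) in K14-Cre+ and 14600 to 16800 CPM in K14-Cre- libraries. Most of that sum was Krt5 and Krt14. Log2 fold changes of the 6 ran from -0.10 to 0.50. By edgeR and limma-voom 0 were called, against 0.515% and 0.425% of all genes. DESeq2 called 1 as higher, Itgb4, with 339 ± 39.7 CPM in K14-Cre+ and 239 ± 5.63 CPM in K14-Cre- libraries (SD, n = 3 each), against 3.79% of all genes. The 6 markers of suprabasal cells summed to more, 103000 to 139000 CPM in K14-Cre+ and 82100 to 104000 CPM in K14-Cre- libraries, so transcripts of differentiated keratinocytes were abundant despite the purification. K14-Cre+ replicate 1 and K14-Cre- replicate 3 stood apart by their fibroblast markers, at 1400 CPM against 180 and 233 CPM in the other K14-Cre+ libraries and at 832 CPM against 203 and 299 CPM in the other K14-Cre- libraries. Across all genes K14-Cre+ replicate 3 stood furthest from its group, with a chi-square per degree of freedom of 63.7 and 45.6 against replicates 1 and 2, where those replicates gave 13.7 between them and K14-Cre- pairs 8.70 to 13.2. Without it 422 genes were called by edgeR, against 80 with it.

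Abcb1b mRNA was about an order of magnitude higher in K14-Cre+ cells, and among the drug pumps it was the only one past the threshold. Abcg2 was higher in every K14-Cre+ library without passing. Abcc5 was slightly higher and Abcc3 lower in K14-Cre+ libraries, while the levels of Abcc1 and Abcc4 overlapped between the genotypes. Abcb1a stayed near the limit of detection and Abcc2 was in effect not detected. By edgeR's quasi-likelihood test, adjusted over all genes with a threshold of 0.05, 1 of the 6 pumps was called higher, 0 lower and 5 neither. Over all 15525 genes tested, 0.515% passed in either direction and 0.406% passed as higher in K14-Cre+. Because the genes were proposed from this comparison, nothing is read from the difference between these shares. In bulk RNA, a change in the number of cells of a type and a change in the RNA per cell cannot be told apart.

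Abcb1b, one of the copies of P-glycoprotein, had 728, 538 and 363 counts in K14-Cre+ libraries, against 44, 52 and 54 in K14-Cre- libraries. On the CPM scale the values were 22.4, 23.8 and 17.2 in K14-Cre+ libraries and 1.76, 2.14 and 2.06 in K14-Cre- libraries. The groups lay far apart, and K14-Cre+ replicate 3 was the lowest of its group. The mean was 21.1 ± 3.45 CPM in K14-Cre+ and 1.99 ± 0.195 CPM in K14-Cre- cells (SD, n = 3 each), a ratio of 10.7. The log2 fold change, K14-Cre+ minus K14-Cre-, was 3.41 (SE 0.17). Dropping single libraries gave 3.32 to 3.54. Abcb1b was no longer called without K14-Cre- replicate 1 or 2 (log2 fold changes 3.34 and 3.47), fits in which 0 genes of the whole table passed by edgeR and 1844 and 2085 had an unadjusted p under 0.05. It was 3.39 and not called without both libraries of high fibroblast content.

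Abcb1a, the other copy, had 18, 12 and 8 counts in K14-Cre+ libraries, against 9, 7 and 7 in K14-Cre- libraries. The ranges in CPM, 0.380 to 0.553 in K14-Cre+ and 0.266 to 0.361 in K14-Cre-, did not overlap but rest on few reads. A floor of 3 counts corresponds to 0.0922 to 0.143 CPM, and covers counting error only. Abcb1b took 97.6%, 97.8% and 97.8% of the reads of the pair in K14-Cre+ libraries and 83.0%, 88.1% and 88.5% in K14-Cre- libraries. With the counts of both copies summed as 1 gene, the log2 fold change was 3.24 (SE 0.16). That sum does not depend on which copy a counted read was assigned to. It cannot restore shared reads if the counting left them out.

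The genes on either side of the pair were not higher by anything near the difference of Abcb1b. Rundc3b, the protein-coding gene before Abcb1a, had 1.82 ± 0.185 CPM in K14-Cre+ and 1.81 ± 0.012 CPM in K14-Cre- libraries (SD, n = 3 each), or 0.01 as a log2 fold change (SE 0.19, adjusted p = 0.999 by edgeR). Abcb4, the phospholipid transporter gene after Abcb1b, had 3, 0 and 2 counts in K14-Cre+ libraries, against 9, 5 and 5 in K14-Cre- libraries, and was below the filter. In CPM it was lower in every K14-Cre+ library, without overlap, but this rests on few reads.

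Abcg2 had 589, 347 and 306 counts in K14-Cre+ libraries, against 251, 227 and 245 in K14-Cre- libraries. In CPM this was 18.1, 15.4 and 14.5 in K14-Cre+ and 10.1, 9.32 and 9.32 in K14-Cre- libraries. Every K14-Cre+ library lay above every K14-Cre- library, and K14-Cre+ replicate 1 was the highest. The ratio of the means was 1.67 and the log2 fold change 0.74 (SE 0.11), which missed the threshold in edgeR with TMM scaling and in limma-voom. The gene passed with the size factors of DESeq2, in DESeq2 itself, with either other filter on low counts and without K14-Cre+ replicate 3, where the log2 fold change was 0.81.

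The multidrug resistance-associated genes gave 0 calls by edgeR, and Abcc3 had the largest difference among them. Abcc1, which exports glutathione conjugates and leukotrienes, had 130, 126 and 147 CPM in K14-Cre+ libraries, against 140, 137 and 121 CPM in K14-Cre- libraries. These ranges overlap, with a log2 fold change of 0.01 (SE 0.09), whose sign turned under total count scaling (-0.105). Abcc4, which exports cyclic nucleotides and prostaglandins, had 17.6, 15.6 and 17.5 CPM in K14-Cre+ libraries, against 15.5, 16.7 and 17.3 CPM in K14-Cre- libraries. It too overlapped, with 0.04 (SE 0.09) on the log2 scale, and turned sign under the same scaling (-0.0777).

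Abcc5, another exporter of cyclic nucleotides, had 85.3, 81.6 and 87.1 CPM in K14-Cre+ libraries, against 76.3, 71.2 and 75.1 CPM in K14-Cre- libraries. The groups did not overlap, yet the ratio of the means was only 1.14 and the log2 fold change 0.19 (SE 0.07). Abcc3, which in liver and gut exports glucuronides towards the blood, had 7.93, 9.56 and 6.51 CPM in K14-Cre+ libraries, against 10.9, 11.1 and 11.9 CPM in K14-Cre- libraries. Every K14-Cre+ library was lower, at a ratio of 0.708 and a log2 fold change of -0.50 (SE 0.15) that did not pass. Abcc2, known as the exporter of conjugated bilirubin in the liver, had 0 counts in all 3 K14-Cre+ libraries and 0, 0 and 1 in K14-Cre- libraries, which allows up to 0.143 CPM in a K14-Cre+ library at the floor of 3 counts.

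Of the 6 tested pumps, 4 had no overlap between the genotypes in CPM, 3 of them higher in K14-Cre+ and 1 lower. The same held for 28% of all tested genes, and again nothing is read from this since the genes were proposed from the comparison.

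**Figure D1:**
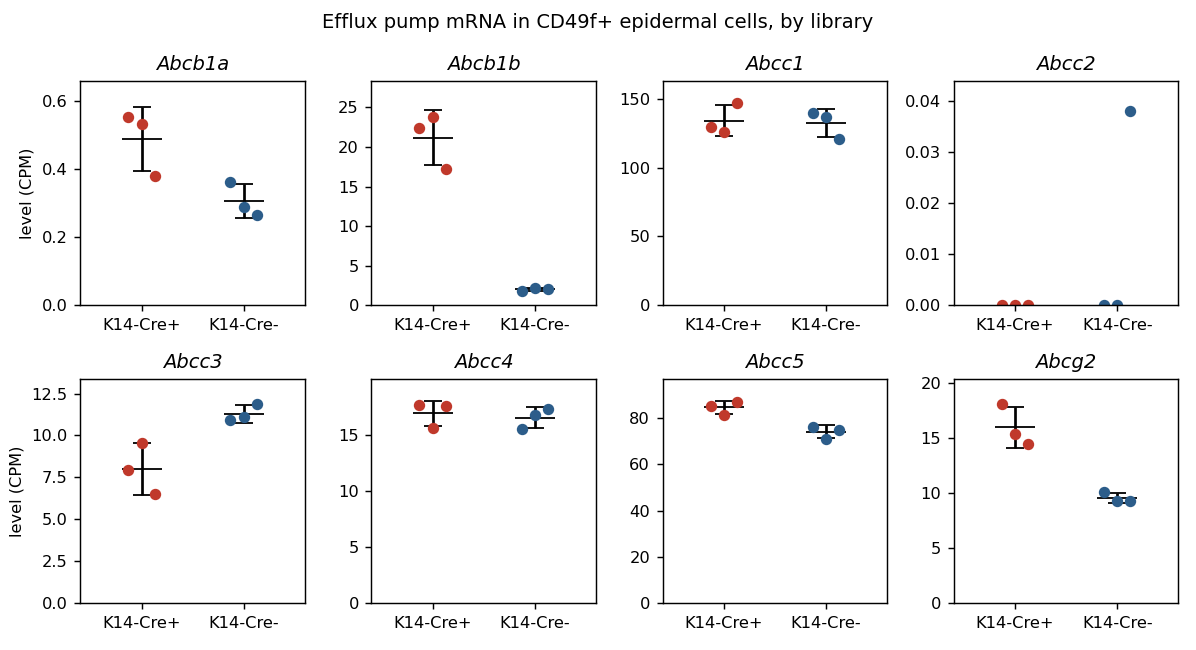
Level of each of the 8 efflux pump genes in CPM (vertical axis, from 0, own scale per gene) in K14-Cre+ libraries (red) and K14-Cre- libraries (blue). Points are libraries, horizontal bars means and error bars SD (n = 3), not drawn for Abcc2 with its single read. Abcb1b lies at 17.2 to 23.8 CPM in K14-Cre+ and 1.76 to 2.14 CPM in K14-Cre- libraries, while Abcc1 and Abcc4 overlap.

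Levels of different genes were compared per kilobase of counted exon, as RPKM, the CPM divided by that length. In K14-Cre+ cells Abcc1 was the most abundant pump, at 10.9 ± 0.937 RPKM, followed by Abcc5 at 8.0 ± 0.265 and Abcb1b at 4.87 ± 0.794 RPKM (SD, n = 3). Abcg2 came next at 3.21 ± 0.374 RPKM and overlapped with Abcc4 at 2.95 ± 0.201 RPKM, so their order is not fixed. Abcc3 was sixth at 1.40 ± 0.268 RPKM, ahead of Abcb1a at 0.0891 ± 0.0172 RPKM.

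In K14-Cre- cells Abcc1 (10.7 ± 0.821 RPKM) and Abcc5 (7.01 ± 0.252 RPKM) also held the first places, with Abcc4 after them at 2.88 ± 0.162 RPKM (SD, n = 3). Abcc3 at 1.98 ± 0.0915 and Abcg2 at 1.92 ± 0.0861 RPKM overlapped. Abcb1b was sixth here, at 0.457 ± 0.0449 RPKM, ahead of Abcb1a at 0.0557 ± 0.00906 RPKM. The ranges of all other neighbours in either order were separate.

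Summed over the 8 genes, pump transcripts came to 31.9, 30.9 and 31.3 RPKM in K14-Cre+ libraries, against 25.6, 25.1 and 24.4 RPKM in K14-Cre- libraries. Abcb1b made up 16.2%, 17.7% and 12.7% of this sum in K14-Cre+ libraries and 1.58%, 1.96% and 1.94% in K14-Cre- libraries. Without Abcb1b the sums were 26.7, 25.4 and 27.3 RPKM in K14-Cre+ and 25.2, 24.6 and 23.9 RPKM in K14-Cre- libraries, so most of the difference in the total was Abcb1b. Abcc1 remained the largest part in each library, at 32.9% to 38.1% in K14-Cre+ and 40.2% to 44.2% in K14-Cre- libraries.

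**Figure D2:**
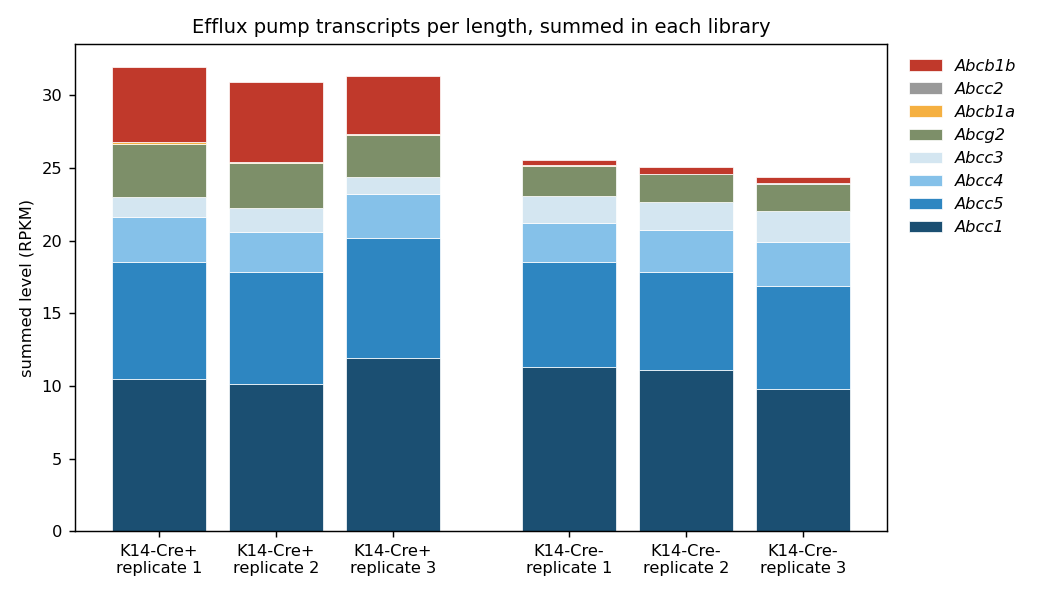
Stacked bars of the level in RPKM (vertical axis) of the 8 pump genes in each library, K14-Cre+ left and K14-Cre- right, coloured by gene. The red part at the top is Abcb1b, at 12.7% to 17.7% of the bar in K14-Cre+ and 1.58% to 1.96% in K14-Cre- libraries, while the other parts stay closer in height.

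The rest of the ABC family gave a setting for these values. It held 45 further genes, of which 31 could be tested, and by edgeR 0 rose and 0 fell, against 0.406% and 0.11% of all genes. At an unadjusted p under 0.05 there were 7, all higher in K14-Cre+. Over all tested genes 18.8% had such a p in either direction and 10.3% as higher. DESeq2 called 5 of the other ABC genes, all higher, and gave no adjusted p to Abca8a, Abca8b, Abcc8, Cftr and Abcd2. Over the 14601 genes to which it gave an adjusted p, it called 5.73% in either direction, 3.79% as higher and 1.94% as lower. By limma-voom 0 of the other ABC genes were called, against 0.425% of all genes, with 0.335% higher and 0.0902% lower. The median log2 fold change was 0.10 over these genes, 0.11 over the 6 tested pumps and -0.00478 over all genes tested. The values of the other ABC genes ran from -0.74 to 1.64, below the 3.41 of Abcb1b. Of the 31, 6 had no overlap between the genotypes, all higher in K14-Cre+ and 0 lower. Over all tested genes, 28% had no overlap in either direction and 14.1% had none and were higher.

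Tap2, a subunit of the peptide transporter that loads class I histocompatibility molecules, had 14.5 ± 1.72 CPM in K14-Cre+ and 8.63 ± 1.08 CPM in K14-Cre- cells (SD, n = 3 each), or 0.75 as a log2 fold change (SE 0.14, adjusted p = 0.078 by edgeR). On the opposite strand, Gm15821 covers 14.1% of the exon length of Tap2, with a mean of 1.5 counts. Abcg4, a sterol transporter, had 7.21 ± 3.65 CPM in K14-Cre+ and 2.30 ± 0.369 CPM in K14-Cre- cells, or 1.64 as a log2 fold change (SE 0.36, adjusted p = 0.103 by edgeR). The remaining genes called by DESeq2, named after their values were seen, were Tap1, the partner of Tap2, the sterol exporter gene Abcg1 and Abca12, which loads lipids into the lamellar granules of keratinocytes. Their log2 fold changes were 0.58 (SE 0.18), 1.21 (SE 0.43) and 0.80 (SE 0.24). For Abcg1 the genotypes overlapped, with 15.6, 10.4 and 36.1 CPM in K14-Cre+ and 7.46, 10.8 and 8.64 CPM in K14-Cre- libraries. Abca12 had 273, 282 and 506 CPM in K14-Cre+ and 218, 210 and 183 CPM in K14-Cre- libraries. Abcg4 had 5.75, 4.51 and 11.4 CPM in K14-Cre+ and 2.01, 2.71 and 2.17 CPM in K14-Cre- libraries. All 3 genes were thus highest in K14-Cre+ replicate 3, the library furthest from its group. Psmb9 lies on the opposite strand over 3.87% of the exon length of Tap1. Abca12 marks differentiating keratinocytes, and the 6 suprabasal markers given above had log2 fold changes of 0.30 to 0.91. Their sum was 103000, 124000 and 139000 CPM in K14-Cre+ libraries, again highest in replicate 3. The edgeR test called 0 of these 6, with 5 under 0.05 before adjustment, all higher, against 10.3% of all tested genes. DESeq2 called 2 as higher, against 3.79% of all genes, and limma-voom called 0. Over all genes edgeR and limma-voom called 0.406% and 0.335% as higher. The part of differentiated cells in these values was not tested.

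**Figure D3:**
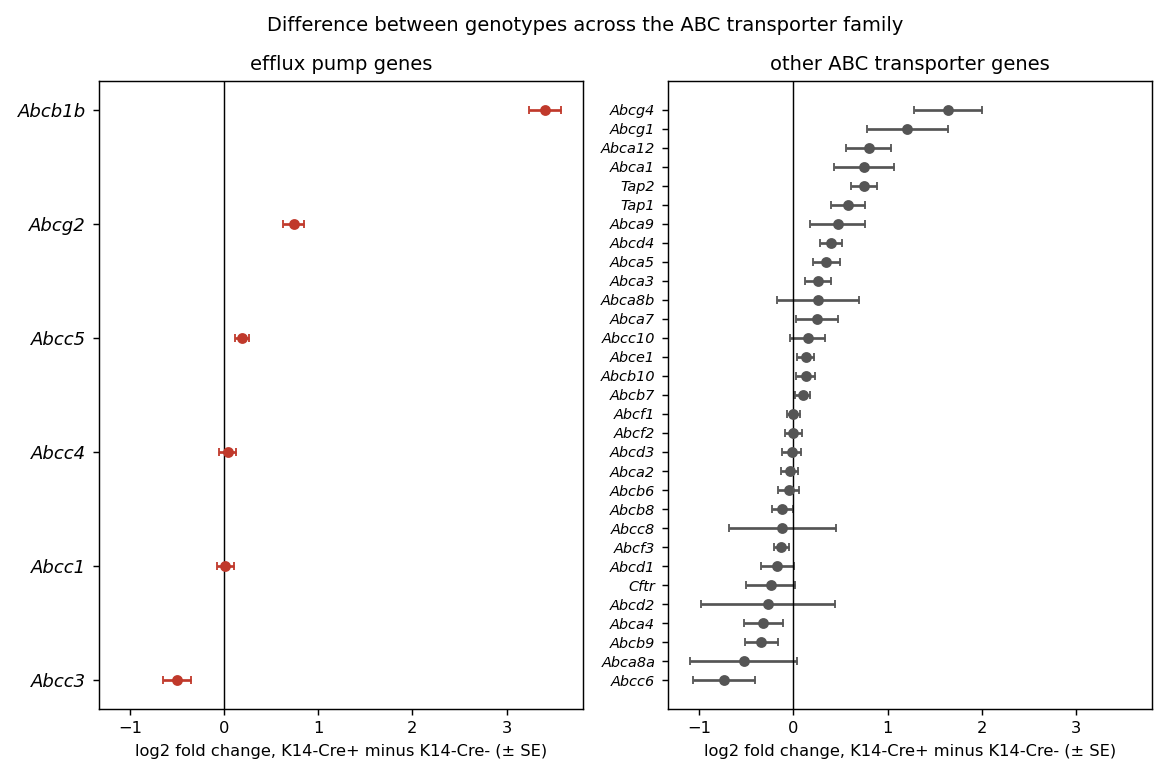
Log2 fold change, K14-Cre+ minus K14-Cre- (horizontal axis, points, with SE as bars), of the 6 tested pump genes on the left and the 31 other tested ABC genes on the right, in order of size. Abcb1b at 3.41 lies beyond the other ABC genes, whose highest value is 1.64 for Abcg4.

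Genes that work with the pumps were taken from lists made by function. Among 12 genes for receptors and factors known to regulate drug transport, 9 were tested. Of these, edgeR, DESeq2 and limma-voom each called 0, with 0 under 0.05 before adjustment. Over all genes these tests called 0.515%, 5.73% and 0.425%, and 18.8% had an unadjusted p under 0.05. With 9 genes, nothing is read from these counts. Nfe2l2, which encodes NRF2, had 55.0 ± 5.31 CPM in K14-Cre+ and 48.5 ± 2.71 CPM in K14-Cre- cells, or 0.18 as a log2 fold change (SE 0.09, adjusted p = 0.324 by edgeR). Ybx1, a Y-box protein gene, had a log2 fold change of -0.27 (SE 0.12, adjusted p = 0.281 by edgeR). The xenobiotic receptor genes Nr1i2 and Nr1i3, which encode PXR and CAR, had at most 6 counts in any library and were not tested.

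Of 21 genes for conjugating enzymes and glutathione synthesis, which supply substrates of the Abcc pumps, 19 were tested and by edgeR 0 rose or fell. The edgeR share over all genes was 0.515%. Before adjustment 1 lay higher and 4 lower with p under 0.05, against 18.8% of all tested genes in either direction. The calls of DESeq2 were 1 higher and 1 lower, against 3.79% and 1.94% of all genes, and those of limma-voom 0, against 0.425%. Gsto1, an omega class glutathione transferase gene, had 252 ± 32.1 CPM in K14-Cre+ and 162 ± 16.7 CPM in K14-Cre- cells (SD, n = 3 each), or 0.64 as a log2 fold change (SE 0.12, adjusted p = 0.0793 by edgeR). Gss, the glutathione synthetase gene, had a log2 fold change of -0.41 (SE 0.10, adjusted p = 0.127 by edgeR), with Acss2 on the opposite strand over 6.68% of its exon length.

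The list of solute carriers and other export genes had 16 members, 11 of them tested. The number called was 0 in edgeR, DESeq2 and limma-voom alike, against 0.515%, 5.73% and 0.425% of all genes. Before adjustment 1 lay higher and 1 lower with p under 0.05, against 18.8% of all tested genes in either direction. Slc22a4, a cation and carnitine transporter gene, had a log2 fold change of -0.24 (SE 0.08, adjusted p = 0.193 by edgeR), and Slco3a1, an organic anion transporter gene, had a log2 fold change of 0.23 (SE 0.09, adjusted p = 0.239 by edgeR).

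The genes whose profile over the 6 libraries was most like that of Abcb1b were found by the root mean square difference of log2 CPM centred on each gene's mean. Gapdhs, a glycolytic enzyme gene of sperm, was nearest at 0.29, then Ddit4l, an inhibitor of mTOR signalling, at 0.30, and Abhd11os, a non-coding RNA gene, at 0.45. Cpt1c, a carnitine palmitoyltransferase gene of neurons, and Eda2r, the ectodysplasin A2 receptor gene, were both at 0.54. Each had its 3 K14-Cre+ libraries above its 3 K14-Cre- libraries. This split follows from choosing the genes by likeness to Abcb1b and is no separate result. Their mean levels were 2.04 to 18.6 CPM in K14-Cre+ and 0.213 to 3.31 CPM in K14-Cre- cells, against 21.1 and 1.99 CPM for Abcb1b. K14-Cre+ replicate 2 was the highest library for all 6 genes, Abcb1b included, and replicate 3 was the lowest of the K14-Cre+ libraries for all but Gapdhs. For Cpt1c, K14-Cre+ replicates 1 and 2 were close, at 21.3 and 21.5 CPM. The order of libraries within a group also entered the choice of these genes, so it is no separate result either. Exons of the opposite strand cover 10.06% of the length of Gapdhs (Tmem147os) and 8.84% of that of Abhd11os (Abhd11).

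**Figure D4:**
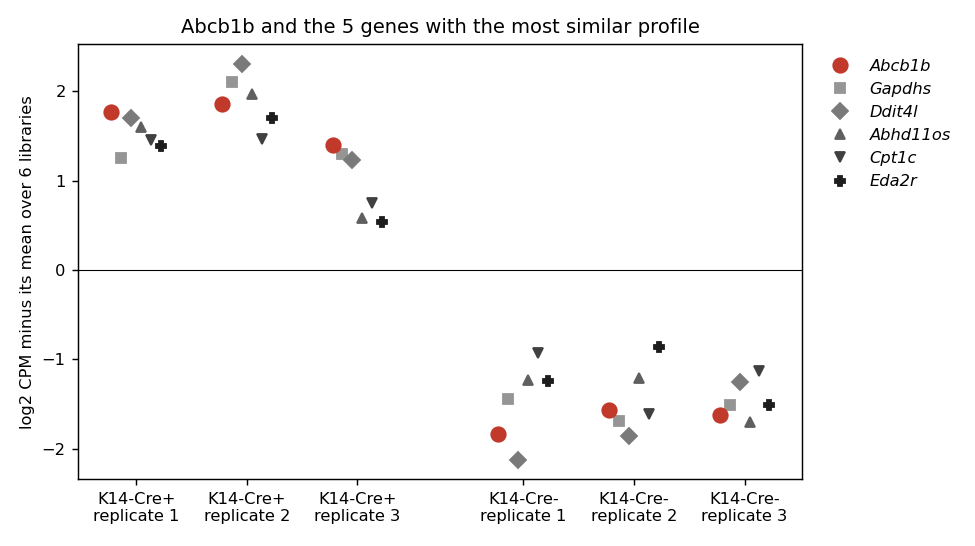
Log2 CPM minus its mean over the 6 libraries (vertical axis) for Abcb1b (red circles) and the 5 genes nearest to it (grey symbols) in K14-Cre+ libraries on the left and K14-Cre- libraries on the right. For Abcb1b the values are 1.77, 1.86 and 1.40 in K14-Cre+ and -1.83, -1.57 and -1.62 in K14-Cre- libraries. The other genes share the split because they were chosen for likeness to these values.

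Markers of other cell types were set beside the pumps, since P-glycoprotein and Abcg2 are also known from vessel walls and blood cells. The 10 endothelial markers summed to 36.5, 5.97 and 5.37 CPM in K14-Cre+ and 7.14, 13.7 and 33.0 CPM in K14-Cre- libraries, with none at 0 throughout. By edgeR 0 of 9 tested passed, with 0 under 0.05 before adjustment and 0 by DESeq2 or limma-voom. Over all genes the shares were 0.515% by edgeR, 18.8% before adjustment, 5.73% by DESeq2 and 0.425% by limma-voom. Log2 fold changes ran from -1.82 for Cldn5 (SE 1.13) to 0.73, and Cdh5 had 0.02 (SE 1.47). With such errors these counts do not show equal levels of the endothelial markers in the genotypes. Abcb1b was highest in K14-Cre+ replicate 2, which had 5.97 CPM of these markers. K14-Cre+ replicate 1, with 36.5 CPM, had the highest Abcb1a and Abcg2, while K14-Cre- replicate 3, with 33.0 CPM, had the lowest Abcb1a. These Abcb1a values rest on 18 and 7 counts. Abcg2 in K14-Cre- replicate 3 was 9.32 CPM, level with replicate 2 and below the 10.1 CPM of replicate 1. Without K14-Cre+ replicate 1 the log2 fold change of Abcg2 was 0.64.

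The markers of fibroblasts (8 genes), mural cells (6), mast cells (4) and muscle and blood (7) had 0 calls each by edgeR, DESeq2 and limma-voom. Over all genes these tests called 0.515%, 5.73% and 0.425%. Before adjustment 3 muscle and blood markers were lower at p under 0.05 and 0 of the others, against 18.8% of all tested genes in either direction. Of these markers Kcnj8 and Cpa3 were below the filter, and DESeq2 gave no adjusted p to Col1a1, Col1a2, Pdgfrb and Myh4. Summed, mural markers had 211 to 258 CPM in K14-Cre+ and 223 to 232 CPM in K14-Cre- libraries. Most of that sum was Notch3 and Cspg4, while Pdgfrb was uneven, with 11.6, 0.177 and 0.57 CPM in K14-Cre+ and 0.842, 1.27 and 8.18 CPM in K14-Cre- libraries. Mast cell markers had 0.797 to 2.77 CPM in K14-Cre+ and 1.24 to 8.22 CPM in K14-Cre- libraries. For muscle and blood the sums were 33.3 to 54.0 CPM in K14-Cre+ and 37.7 to 109 CPM in K14-Cre- libraries.

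Most melanocyte markers were also higher in K14-Cre+, by less than Abcb1b. The 8 markers, with none at 0, summed to 774, 778 and 682 CPM in K14-Cre+ and 381, 442 and 401 CPM in K14-Cre- libraries, and 6 of 8 rose and 0 fell by edgeR, against 0.406% of all genes called higher. DESeq2 called 7 higher and limma-voom 6, against 3.79% and 0.335% of all genes. Log2 fold changes ran from 0.42 to 1.57, the highest for Mlana, against 3.41 for Abcb1b. T cell markers went the other way, with 7 of 8 found in the table. Their sums were 8.84 to 11.7 CPM in K14-Cre+ and 16.6 to 21.9 CPM in K14-Cre- libraries. By edgeR 0 of 7 passed, against 0.515% of all genes, with 6 under 0.05 before adjustment, all lower. Over all tested genes 18.8% had such a p in either direction. DESeq2 called 3 as lower, against 1.94% of all genes, and limma-voom called 0, against 0.425%. DESeq2 gave no adjusted p to Cd247 and Cd2. The 10 myeloid and Langerhans cell markers summed to 94.4 to 139 CPM in K14-Cre+ and 135 to 172 CPM in K14-Cre- libraries. Of 9 tested, Lyz2 rose and H2-Ab1 fell by edgeR, against 0.406% and 0.11% of all genes. Before adjustment 3 lay higher and 3 lower with p under 0.05, against 18.8% of all tested genes in either direction. The calls of DESeq2 were 2 up and 3 down, against 3.79% and 1.94% of all genes. Those of limma-voom were 1 up and 0 down, against 0.335% and 0.0902% of all genes. Their sum joins opposite differences. The class II antigen presentation gene H2-Ab1 had 3.48 ± 1.14 CPM in K14-Cre+ and 17.1 ± 6.10 CPM in K14-Cre- libraries, and the macrophage lysozyme gene Lyz2 had 14.8 ± 2.55 CPM in K14-Cre+ and 5.91 ± 0.797 CPM in K14-Cre- libraries (SD, n = 3 each). The part of these cell types in the values of Abcb1b and Abcg2 was not tested.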

How the data were processed

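The authors deposited raw counts per gene for 6 libraries, not normalized, per the file headers. Per the submitters' processing notes, GSNAP (alignment) and featureCounts (counting) were used, with the build mm10. The library kit is directional per the labels' protocols. Whether counting used the strand, and how reads shared by several genes were handled, is not given in the sources read for this work, so reads from overlapping antisense genes may be mixed. Of 38924 identifiers, 37607 were matched to a symbol.

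Counts were filtered with filterByExpr (minimum count 10), scaled by TMM and tested over all 15525 remaining genes in edgeR 4.0.16 (R 4.3.3) by the two-sided quasi-likelihood test, without covariates. P-values were adjusted by Benjamini-Hochberg and called at 0.05. DESeq2 gave an adjusted p to 14601 of the tested genes, and list members without one count as not called by it. CPM and RPKM values were computed from the counts with the same scaling, and RPKM uses the exon length deposited in the count table. The fits were tested on simulated data. Libraries of a group differed by more than sampling noise (chi-square per degree of freedom at least 8.70), so none was treated as the same library deposited again. This does not show that they are separate animals.

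The pump genes and all lists were chosen with earlier results of these data known. Named genes are the pumps, Rnaseh2b, the genes beside Abcb1a and Abcb1b, every called member or else the 2 smallest p-values of each list other than cell type markers, and the 5 genes of at least 1 CPM most like Abcb1b in log2 CPM (prior count 2). Other genes, among them Abcc9, Abcg5, Nr1i2 and single cell type markers, were named after their values were seen. Alternatives were DESeq2 1.42.0 or its size factors, total count scaling, limma-voom (limma 3.58.1), 2 other filters on low counts, summing Abcb1a and Abcb1b, and leaving out libraries.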

Additional observations from a re-analysis of the deposited data

How the results depend on the processing

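Abcb1b kept its direction in all 14 alternatives, with log2 fold changes of 3.24 to 3.54. It was called in 11, which is a description only, since the gene was chosen with its difference known. It was not called without K14-Cre- replicate 1, without K14-Cre- replicate 2, and without both K14-Cre+ replicate 1 and K14-Cre- replicate 3, a setting added after the data were seen. Abcc3, Abcc5 and Abcg2 kept their direction in all 14 as well. Abcc1 had -0.105 with total count scaling and -0.0298 without those 2 libraries, and -0.0585 to 0.0582 when 1 library was left out. Abcc4 had -0.0777 with total count scaling, and -0.00541 to 0.0909 when 1 library was left out. Total count scaling moved the median of all genes to -0.118.

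The number of pump genes called was 2, Abcb1b and Abcg2, with DESeq2 size factors, in the Wald test of DESeq2, with every gene of at least 1 count and with a minimum mean of 1 CPM. It was 0 without K14-Cre+ replicate 1 and K14-Cre- replicate 3, and 0 to 2 when 1 library was left out, with 2 without K14-Cre+ replicate 3. Other ABC genes called numbered 5 in DESeq2 and 0 to 3 with 1 library left out, the 3 being without K14-Cre+ replicate 3. Over all genes the calls were 41 with total count scaling (27 higher and 14 lower, against 63 and 17), 837 in DESeq2 (554 higher and 283 lower), 142 with at least 1 count, 0 without both libraries and 0 to 422 with 1 left out, from 0 without K14-Cre- replicate 1 or 2 to 422 without K14-Cre+ replicate 3. The cause was not tested. With every gene of at least 1 count, Abcb1a had 0.68 (SE 0.39) and was not called. Abcb1a and Abcc2 were below the filter on low counts, so small differences in them were not detectable at these depths. No paired analysis was possible because the labels pair no libraries between the genotypes, and the replicate numbers used here only follow the order of the samples.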

Other observations

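Among the ABC genes below the filter on low counts, Abcc9, the regulatory subunit of a potassium channel of vessel-wall cells, had 60, 3 and 2 counts in K14-Cre+ libraries and 2, 5 and 75 in K14-Cre- libraries. Its high libraries were K14-Cre+ replicate 1 and K14-Cre- replicate 3. The mural cell marker Pdgfrb was high in the same libraries, with 376, 4 and 12 counts in K14-Cre+ and 21, 31 and 215 in K14-Cre- libraries. Abcg5, a sterol exporter of gut and liver, had 16, 2 and 1 counts in K14-Cre+ libraries and 0, 0 and 9 in K14-Cre- libraries. Neither gene followed the genotype. Abca15 and Abca16 had 0 counts in all 6 libraries.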
